A study of Rattus norvegicus with 12 samples.

Results

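The genes described here are matrix metalloproteinases and their tissue inhibitors in the lumbar spinal cord of the rat after spinal cord injury (SCI). The set was fixed by gene symbol and has 10 members, the inhibitors Timp1, Timp2, Timp3 and Timp4 and the proteases Mmp2, Mmp3, Mmp9, Mmp12, Mmp14 and Mmp19. Of these 10, 9 were matched to 1 row each among the 23526 genes of the expression table, and all 9 passed the filter on low counts. Timp2 was not matched by symbol. Bulk RNA sequencing covered lumbar segments L3 to L5 in 12 samples, with 3 samples in each of 4 groups: sham on day 0, and SCI on days 3, 7 and 14. All sham samples were from day 0, so time after surgery and injury cannot be told apart. Strain, sex, age, the level and kind of the injury, and any further treatment were not found in the labels. Separate animals are not stated for the replicates, so a p-value here covers the spread of these samples only, and that spread may be technical.

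Matrix metalloproteinases are zinc-dependent enzymes that cut collagens, proteoglycans, growth factors and cell surface proteins. Most are made as inactive precursors, which are opened by other proteases such as plasmin and furin, and the 4 Timp proteins block the opened active site. In the injured cord these enzymes are known for loosening the blood-spinal cord barrier and the basement membranes that incoming leukocytes cross, and later for remodelling the scar and its vessels. Several of the genes respond to inflammatory signals through the transcription factor AP-1, a dimer of Fos and Jun proteins.

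The promoters of 3 members are shown because they hold a match to an AP-1 motif and because Fos and Jun genes were among those higher on day 3. The search took the 250 bases before the gene start that RefSeq gives on the rat build GRCr8, for the 6 of 10 members with an entry, on both strands. Mmp2, Mmp9, Mmp14 and Mmp19 were not searched. The motif TGANTCA and its variant TGAGTAA are in capitals below, and each sequence is written 5′ to 3′ in the direction of the gene. The Timp1 sequence is chrX:3771123-3771372 on the minus strand, that of Mmp3 is chr8:12925031-12925280 on the plus strand, and that of Mmp12 is chr8:12866402-12866651 on the plus strand.
Timp1: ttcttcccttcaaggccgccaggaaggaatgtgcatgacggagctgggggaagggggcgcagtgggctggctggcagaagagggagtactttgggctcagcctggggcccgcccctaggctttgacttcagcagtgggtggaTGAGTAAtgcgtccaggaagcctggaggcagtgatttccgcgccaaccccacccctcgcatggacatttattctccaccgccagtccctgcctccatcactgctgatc
Mmp3: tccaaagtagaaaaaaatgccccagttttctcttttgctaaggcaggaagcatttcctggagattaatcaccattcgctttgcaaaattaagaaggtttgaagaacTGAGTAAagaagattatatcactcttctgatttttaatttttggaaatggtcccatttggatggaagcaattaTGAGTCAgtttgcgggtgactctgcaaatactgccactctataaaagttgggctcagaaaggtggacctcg
Mmp12: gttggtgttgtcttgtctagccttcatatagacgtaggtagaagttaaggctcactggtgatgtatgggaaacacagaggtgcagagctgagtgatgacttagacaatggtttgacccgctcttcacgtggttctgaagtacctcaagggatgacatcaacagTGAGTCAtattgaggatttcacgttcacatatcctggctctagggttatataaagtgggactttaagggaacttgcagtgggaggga
In Mmp3 the match TGAGTCA began 71 bases before the start and a TGAGTAA began 144 bases before it. In Mmp12 the match TGAGTCA began 87 bases before the start, and in Timp1 a TGAGTAA began 108 bases before it. Mmp3 and Mmp12 also held the TATA sequence TATAAA, beginning 32 and 39 bases before the start. None of these 3 motifs was found in the windows of Timp2, Timp3 and Timp4. Among all 33469 promoters of this length, TGANTCA occurred in 6.34%, TGAGTAA in 2.38% and TATAAA in 12.9%. A match describes the letters of the sequence and does not show that a factor bound there.

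Library totals ran from 63.0 to 79.1 in units of 1e+06 counts. Levels below are counts per 1e+06 of the library total (CPM) unless another unit is named. Markers of cord neurons and astrocytes were present in all 12 libraries, which fits the labelled tissue, but libraries of 1 group differed in their make-up. Cord neuron markers (9 of 10 matched) on day 3 were 3.68, 0.463 and 4.10 log2 units below their sham mean in replicates 1, 2 and 3. Schwann cell markers (8 of 8), which belong to nerve roots, were highest in sham replicate 2 and SCI day 3 replicate 3, at 1.39 and 2.35 log2 units above the sham mean. Sensory ganglion markers stood 4.43 and 5.21 log2 units above it in SCI day 14 replicates 1 and 2 and 3.05 above it in SCI day 3 replicate 2, and skeletal muscle markers 5.26 above it in SCI day 7 replicate 2. No batch or date is given by the labels. In tissue samples of this kind, a change in the number of cells of a type and a change in RNA per cell cannot be told apart.

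Most members had their highest mean level on day 3. Against sham, 8 of the 9 members had a positive log2 difference on day 3 and 1, Timp4, had a negative one. Timp1, Mmp3 and Mmp19 rose, with 3 of 9 members passing at a Benjamini-Hochberg adjusted p under 0.05 in edgeR's quasi-likelihood test, where 6.7% of the 18714 genes tested passed and 5.5% passed as higher. At an unadjusted p under 0.05 there were 8 of 9 members, against 35.3% of all genes. The 3 SCI and 3 sham values did not overlap for 5 members (4 higher and 1 lower), against 37.1% of all genes tested, 21.2% higher and 15.9% lower. The members and gene lists were chosen with earlier results of these data known. Counts and medians set beside those of all genes, here and below, are therefore descriptions only. The median log2 difference of the members was 2.38, and that of all genes tested was 0.03. Vascular markers rose on the same day, with 5 of 7 endothelial genes (median 1.61) and 4 of 8 genes of pericytes and smooth muscle (median 1.39) higher in edgeR, and none of either list at 0. The endothelial list stood 1.95, 0.634 and 1.70 log2 units above its sham mean in the day 3 libraries, and replicate 2 was the lowest, as for Timp1, Mmp14 and Mmp19. This list was highest in replicate 1, as was Mmp19, whereas Timp1 and Mmp14 were highest in replicate 3. The pericyte list stood at 1.53, 0.981 and 0.883, lowest in replicate 3, although its sum was lowest in replicate 2. The endothelial list summed to 279 to 395 CPM in sham, 607 to 1588 CPM on day 3, 535 to 742 CPM on day 7 and 462 to 545 CPM on day 14. The pericyte list summed to 206 to 291, 427 to 835, 488 to 657 and 341 to 379 CPM. The part of vessels in the members' levels was not tested.

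On days 7 and 14 the log2 difference was again positive for 8 members and negative for Timp4, but 0 of 9 members passed in edgeR, where 0.016% of all genes passed on each day. At an unadjusted p under 0.05 there were 4 of 9 members on day 7, against 9.89% of all genes, and 4 of 9 on day 14, against 7.4%. DESeq2 and limma voom each called 2 members on day 7, Timp1 and Mmp19, and 0 on day 14. On day 7, 3 members (Timp1, Mmp3 and Mmp19) stood above sham with no overlap, against 13.9% of all genes, and on day 14, 3 did (Timp1, Mmp12 and Mmp19), against 11%. The members' median log2 difference was 1.85 on day 7 and 1.08 on day 14, beside medians of -0.02 and 0.01 over all genes tested. The 3 comparisons share the same sham samples.

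**Figure D1:**
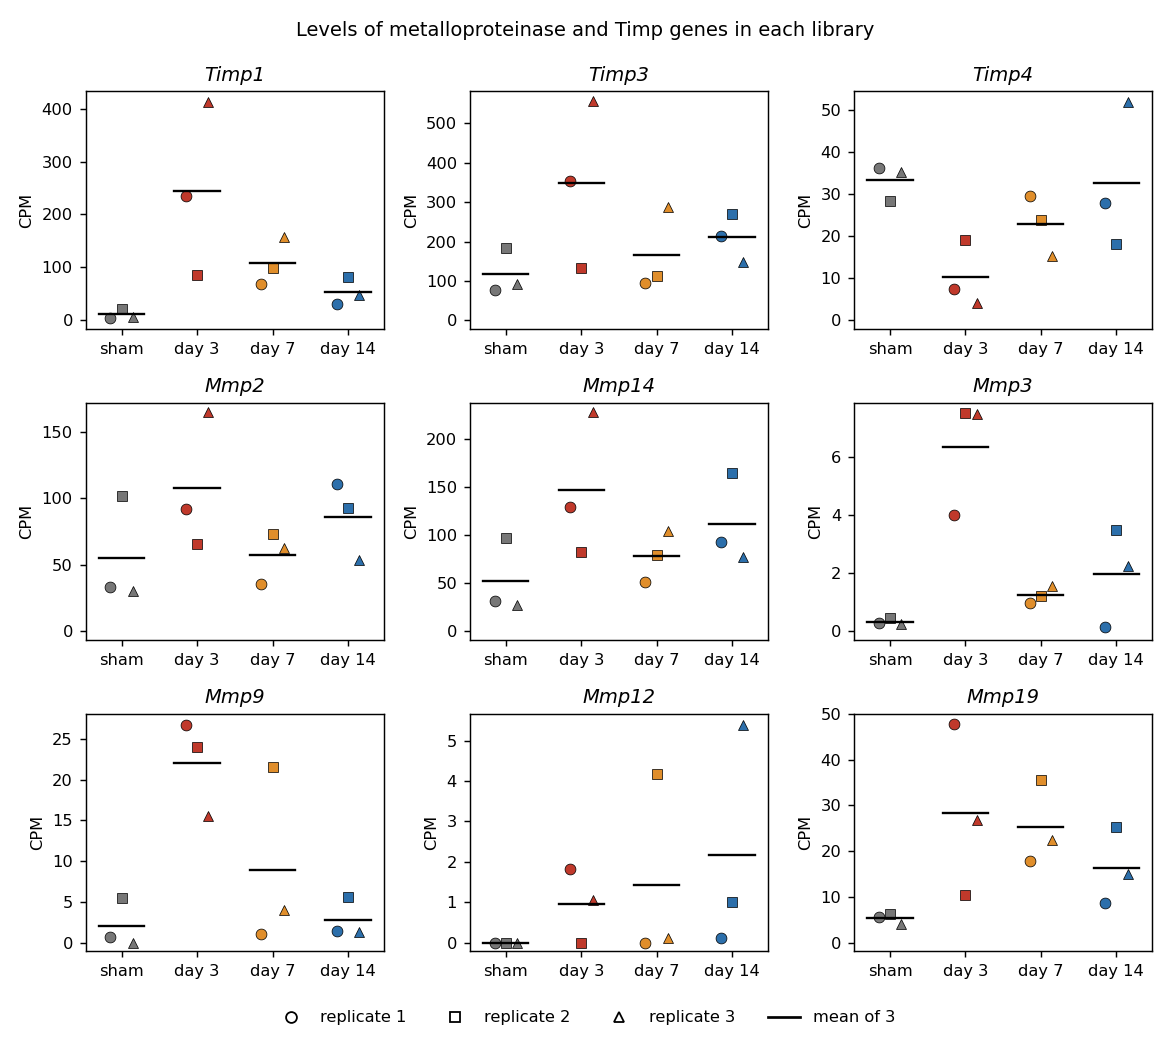
Level of each matched member in CPM on a linear axis (vertical) by group (horizontal). Each point is 1 library, its shape gives the replicate number and the line is the mean of 3. Timp1 reached 86.1 to 412 CPM on day 3 against 5.33 to 22.0 CPM in sham, and Mmp12 was 0 in all sham libraries.

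Timp1, a secreted inhibitor of most metalloproteinases that inflammatory cytokines induce, showed the largest rise among the members that passed. The gene (ENSRNOG00000010208) is on chromosome X. Its level was 5.33, 22.0 and 6.30 CPM in sham replicates 1, 2 and 3. It was 235, 86.1 and 412 CPM on day 3, then 67.7, 99.5 and 157 CPM on day 7, and 30.2, 81.5 and 48.3 CPM on day 14. Every SCI library on all 3 days lay above the highest sham library, and all 3 day 14 libraries lay below the lowest of day 3. The fitted log2 difference from sham on day 3 was 4.44 ± 0.762 (SE), a 21.7-fold rise (edgeR adjusted p = 0.0324). On day 7 it was 3.24 ± 0.721 (edgeR adjusted p = 0.244), and on day 14 it was 2.22 ± 0.693 (edgeR adjusted p = 0.594). The day 3 call was lost without sham replicate 1 or 3, SCI day 3 replicate 1 or 3, SCI day 7 replicate 2 or SCI day 14 replicate 3, with edgeR adjusted p from 0.0546 to 0.164. Without both libraries richest in Schwann markers, an alternative chosen after the values were seen, the log2 difference was 4.70 and the edgeR adjusted p was 0.0841.

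Timp3 is the inhibitor that stays bound to the extracellular matrix and also blocks Adam and Adamts proteases. From chromosome 7 (ENSRNOG00000004303), it had sham levels of 78.2, 183 and 91.2 CPM. On day 3 it measured 353, 133 and 558 CPM, on day 7 it measured 95.4, 111 and 288 CPM, and on day 14 it measured 214, 271 and 148 CPM. The values of each day overlapped those of sham, since SCI day 3 replicate 2 lay under sham replicate 2. The log2 difference on day 3 was 1.55 ± 0.583 and did not pass (edgeR adjusted p = 0.0974). On days 7 and 14 it was 0.45 and 0.81 (edgeR adjusted p = 0.837 and 0.860). In sham and on day 3 Timp3 was highest in the libraries with the most Schwann and fibroblast markers, sham replicate 2 and SCI day 3 replicate 3. The rest of the day 3 order differed. Replicate 1 was lowest in both lists but had 353 CPM of Timp3, against 133 CPM in replicate 2. Fibroblast and meningeal markers (10 of 10 matched, none at 0) summed to 1199.6 to 3746 CPM in sham, 2473 to 6191 CPM on day 3, 1008 to 2885 CPM on day 7 and 3428 to 4097 CPM on day 14. Schwann markers (none at 0) summed to 6186 to 47475 CPM in sham, 14639 to 57712 CPM on day 3, 2451 to 20552 CPM on day 7 and 15126 to 27853 CPM on day 14. The part of these cells in the level of Timp3 was not tested.

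Timp4, an inhibitor expressed mainly in brain, heart and muscle, was the member that went the other way. This gene on chromosome 4 (ENSRNOG00000007955) measured 36.4, 28.5 and 35.3 CPM in sham. On day 3 its level was 7.47, 19.2 and 4.07 CPM, and all 3 libraries lay below the lowest sham library. On day 7 it was 29.6, 23.8 and 15.3 CPM, and on day 14 it was 27.9, 18.1 and 52.1 CPM, both overlapping sham. The log2 difference on day 3 was -1.75 ± 0.537 and did not pass (edgeR adjusted p = 0.0649). It was -0.59 on day 7 and -0.08 on day 14 (edgeR adjusted p = 0.766 and 0.978). Without SCI day 3 replicate 2 the day 3 difference was -2.58 (edgeR adjusted p = 0.00324). Astrocyte markers (8 of 8 matched, none at 0) had the same order among the day 3 libraries, at 1.27, 0.598 and 1.84 log2 units below the sham mean, and so did the cord neuron markers given above. The astrocyte list summed to 5017 to 7166 CPM in sham. On day 3 it summed to 6982, 6219 and 3361 CPM in replicates 1, 2 and 3, so by sum it was highest in replicate 1, unlike Timp4. The cord neuron list (none at 0) summed to 4281 to 5834 CPM in sham and 246 to 4383 CPM on day 3. The part of astrocytes and neurons in the lower level of Timp4 was not tested.

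The inhibitor genes share an arrangement in the genome that bears on these counts. In RefSeq on GRCr8, Timp1 lies inside Syn1, Timp3 inside Syn3 and Timp4 inside Syn2, genes of the synapsins that coat synaptic vesicles, while none of the 6 protease members overlaps another protein-coding gene. The labels and headers used here do not say whether reads were counted by strand, so reads of a Timp gene and of the synapsin gene around it may not be fully separated. The 3 synapsin genes were looked at after the values were seen. Syn2 measured 90.3, 67.2 and 110 CPM in sham and 13.1, 73.9 and 5.12 CPM on day 3, in the same order as Timp4 among the day 3 libraries. Syn1 measured 273, 223 and 298 CPM in sham and 37.6, 206 and 26.0 CPM on day 3, and Syn3 58.0, 49.2 and 71.1 CPM and 9.36, 44.9 and 9.26 CPM. Thus Timp1 and Timp3 were highest in the day 3 libraries where the synapsin gene around them was lowest. The log2 differences of Syn1, Syn2 and Syn3 on day 3 were -1.61, -1.59 and -1.53 (edgeR adjusted p = 0.118, 0.154 and 0.101).

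Timp2, which both inhibits Mmp2 and helps Mmp14 to activate it, has no value here. Its locus on chromosome 10 holds the gene Cep295nl in RefSeq, and the table's row of that name (ENSRNOG00000033143) carries pathway terms that name TIMP2. Which gene the reads of this row come from cannot be told apart. The row measured 190, 297 and 215 CPM in sham, 214, 321 and 388 CPM on day 3, 254, 222 and 275 CPM on day 7, and 425, 455 and 306 CPM on day 14. The day 14 libraries were the only ones that all stood above sham, with a log2 difference of 0.73 ± 0.268 (edgeR adjusted p = 0.618).

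The balance among the 3 inhibitors with values was taken from the authors' FPKM (counts per kilobase and per 1e+06), which can be compared between genes, and it does not depend on the scaling of a library. Timp1 made up 9.82%, 18.1% and 10.2% of the summed FPKM of Timp1, Timp3 and Timp4 in sham. On day 3 its share was 56.8%, 54.6% and 59.6%, although the sum itself ran from 174 to 764 FPKM in these libraries. On day 7 the share was 54.9%, 61.6% and 51.5%, and on day 14 it was 20.9%, 36.7% and 35.4%. The shares of days 3 and 7 lay apart from all sham and day 14 values, and the day 14 shares lay above all sham values. Timp3 had a share of 74.0% ± 1.76 (SD, n = 3) in sham, 41.7% ± 1.24 on day 3, 40.1% ± 6.49 on day 7 and 63.1% ± 9.97 on day 14. Timp4 had 13.3% ± 6.19 in sham and 1.31% ± 1.72, 3.93% ± 2.56 and 5.91% ± 4.10 on days 3, 7 and 14. Timp2 is not in these sums.

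**Figure D2:**
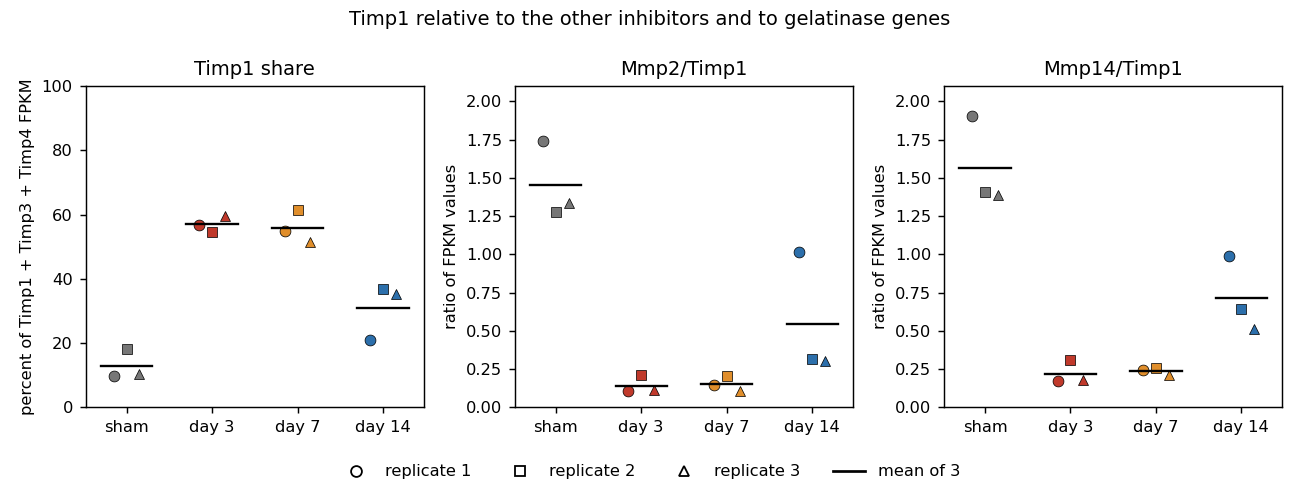
Left, share of Timp1 in the summed FPKM of Timp1, Timp3 and Timp4 in percent. Middle and right, ratios of Mmp2 and Mmp14 FPKM to Timp1 FPKM, on linear axes from 0, by group, with 1 point per library and a line at the mean of 3. The share lay at 51.5% to 61.6% on days 3 and 7 against 9.82% to 18.1% in sham, and both ratios were lower on every SCI day than in any sham library.

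Mmp14 is a membrane-bound collagenase that activates Mmp2 at the cell surface. Its gene on chromosome 15 (ENSRNOG00000010947) measured 31.8, 96.8 and 27.3 CPM in sham. It measured 129, 82.8 and 228 CPM on day 3, 51.3, 79.3 and 104 CPM on day 7, and 93.4, 164 and 77.8 CPM on day 14. Sham replicate 2 stood above SCI day 3 replicate 2, so the groups overlapped, and no day passed. The log2 difference was 1.49 ± 0.548 on day 3 (edgeR adjusted p = 0.0939), 0.55 on day 7 (edgeR adjusted p = 0.781) and 1.08 on day 14 (edgeR adjusted p = 0.711).

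Mmp2, gelatinase A, which many stromal cells make constitutively, had the smallest log2 difference of the proteases on day 3. It is on chromosome 19 (ENSRNOG00000016695), with 33.7, 102 and 30.5 CPM in sham and 91.8, 65.7 and 165 CPM on day 3. The later levels were 35.5, 73.5 and 62.5 CPM on day 7 and 111, 92.9 and 53.5 CPM on day 14. Every day overlapped sham, and the log2 difference was 0.95 ± 0.521 on day 3 (edgeR adjusted p = 0.210), 0.00 on day 7 and 0.61 on day 14. Sham replicate 2 was the highest sham library for both Mmp2 and Mmp14, and stood 3.33 and 3.54 times above the lowest. That library also held the most Schwann and fibroblast markers of the sham group, whose part was not tested.

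Set against Timp1 within a library, Mmp2 and Mmp14 were lower after injury. Their own log2 differences from sham on day 3 were positive, at 0.95 and 1.49, and that of Timp1 was larger, at 4.44. The ratio of Mmp2 to Timp1 in FPKM was 1.74, 1.28 and 1.34 in sham, 0.108, 0.210 and 0.110 on day 3, 0.144, 0.204 and 0.110 on day 7, and 1.01, 0.314 and 0.306 on day 14. That of Mmp14 to Timp1 was 1.91, 1.41 and 1.38 in sham, 0.175, 0.307 and 0.177 on day 3, 0.242, 0.254 and 0.212 on day 7, and 0.987, 0.644 and 0.514 on day 14. Neither ratio overlapped sham on any day. Sham replicate 2, which stood apart in the levels, lay close to sham replicate 3 in both ratios. Mmp2 relative to Mmp14 was 0.929 ± 0.0320 in sham and 0.642 ± 0.0385 on day 3 (SD, n = 3), with no overlap, and 0.639 ± 0.146 and 0.703 ± 0.284 on days 7 and 14. The ratios of Mmp2 and Mmp14 to Timp1 were chosen after the values were seen, and the ratio of Mmp2 to Mmp14 was not planned either. For the inducible proteases Mmp9 and Mmp3, whose ratios to Timp1 were planned, the day 3 values overlapped those of sham. Mmp9 to Timp1 was 0.0346 ± 0.0351 in sham and 0.0406 ± 0.0350 on day 3, and Mmp3 to Timp1 was 0.0183 ± 0.00776 and 0.0195 ± 0.0192 (SD, n = 3). The Mmp3 mean of day 3 rests on replicate 2, at 0.0416. Replicates 1 and 3, at 0.00815 and 0.00868, lay below all sham values. Later, Mmp9 to Timp1 overlapped sham on days 7 and 14, while Mmp3 to Timp1 lay below all sham values on day 7, at 0.00474 to 0.00694 against 0.00999 to 0.0253, and overlapped them on day 14. Mmp12 to Timp1 was 0 in sham, 0 to 0.00333 on day 3, 0 to 0.0182 on day 7 and 0.00144 to 0.0482 on day 14. These transcript ratios say nothing of enzyme activity.

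Mmp3, stromelysin, cuts proteoglycans and laminin and opens other Mmp precursors, and it rose from a low level. It is on chromosome 8 (ENSRNOG00000032626) and measured 0.294, 0.460 and 0.261 CPM in sham. On day 3 it measured 4.02, 7.51 and 7.50 CPM, and on day 7 it measured 0.992, 1.23 and 1.57 CPM. On day 14 the libraries split, with 0.159 CPM in replicate 1 and 3.49 and 2.25 CPM in replicates 2 and 3. All day 3 and day 7 values lay above sham, and those of days 7 and 14 lay below day 3. The log2 difference on day 3 was 4.20 ± 0.862, an 18.3-fold rise (edgeR adjusted p = 0.0358). It was 1.85 on day 7 and 2.49 on day 14 (edgeR adjusted p = 0.485 and 0.594). Unlike Timp1, Mmp3 was not lowest in SCI day 3 replicate 2, the library that kept its neuronal markers. The day 3 call was lost without any 1 of the 3 sham libraries, SCI day 3 replicate 1 or 3, SCI day 7 replicate 2 or SCI day 14 replicate 3, with edgeR adjusted p from 0.0544 to 0.164.

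Mmp9, gelatinase B, is stored in neutrophil granules and made by macrophages, and it opens basement membranes around vessels. It is on chromosome 3 (ENSRNOG00000017539) and measured 0.635, 5.46 and 0 CPM in sham, the 0 being 0 counts. On day 3 it measured 26.8, 24.0 and 15.5 CPM, above all sham values. On day 7 it measured 1.07, 21.5 and 4.05 CPM, overlapping day 3. On day 14 it measured 1.43, 5.62 and 1.33 CPM, and these 3 values lay below day 3. With this spread the log2 difference of 3.42 ± 1.50 on day 3 did not pass (edgeR adjusted p = 0.133), nor did 2.07 on day 7 or 0.45 on day 14 (edgeR adjusted p = 0.687 and 0.951). Neutrophil markers (9 of 10 matched) were at -1.50, 3.46 and -1.96 in the sham libraries as log2 differences from their mean, 2.91, 3.44 and 2.11 on day 3, 0.857, 0.965 and 1.76 on day 7, and 0.227, 2.69 and -0.114 on day 14. The high sham library and the high day 14 library in this list were those highest in Mmp9. SCI day 7 replicate 2, highest in Mmp9 that day, was highest in the list's summed level but not in its mean log2 difference. On day 3 Mmp9 was highest in replicate 1 and the list in replicate 2. The list summed to 5.57 to 81.9 CPM in sham, 31.0 to 84.8 CPM on day 3, 26.2 to 42.9 CPM on day 7 and 14.7 to 48.1 CPM on day 14, and Camp, Cxcr2, Elane, Retnlg, S100a8 and S100a9 were at 0 in at least 1 library. Its part in Mmp9 was not tested.

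Mmp12, macrophage elastase, was listed with 0 counts in all 3 sham libraries. The gene (ENSRNOG00000030187) is on chromosome 8. The day 3 libraries held 144, 0 and 78 counts, those of day 7 held 0, 303 and 8, and those of day 14 held 8, 72 and 340. In CPM these were 1.82, 0 and 1.05 on day 3, 0, 4.18 and 0.114 on day 7, and 0.106, 1.01 and 5.40 on day 14. Thus 1 library on day 3 and 1 on day 7 had no count, and only on day 14 did all 3 lie above sham. With sham set to a floor of 3 counts in its 3 libraries together (0.0154 CPM), the pooled level was at least 62.9-fold higher on day 3, 93.1-fold on day 7 and 130-fold on day 14. Without the highest library of each day (SCI day 3 replicate 1, SCI day 7 replicate 2 and SCI day 14 replicate 3) the bounds were 33.7-fold, 3.59-fold and 35.4-fold. All these bounds cover counting error only, and no day passed (edgeR adjusted p = 0.128, 0.458 and 0.629).

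Mmp19, a protease of many tissues that cuts basement membrane proteins, was above sham in every SCI library. It is on chromosome 7 (ENSRNOG00000006778) and measured 5.62, 6.17 and 4.05 CPM in sham. It measured 47.8, 10.4 and 26.7 CPM on day 3, 17.9, 35.6 and 22.4 CPM on day 7, and 8.75, 25.3 and 15.1 CPM on day 14. The lowest SCI library lay above the highest sham library. The log2 difference was 2.38 ± 0.539 on day 3, a 5.19-fold rise (edgeR adjusted p = 0.0386), 2.21 on day 7 (edgeR adjusted p = 0.251) and 1.59 on day 14 (edgeR adjusted p = 0.594). The day 3 call was lost without any 1 of the sham libraries, SCI day 3 replicate 1 or 3, SCI day 7 replicate 2 or 3, or SCI day 14 replicate 3, with edgeR adjusted p from 0.0506 to 0.164.

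Macrophage markers varied between libraries in an order that was only in part that of Mmp12 and Mmp19. Microglia and macrophage markers (10 of 10 matched, none at 0) stood 2.04, 0.109 and 0.260 log2 units above the sham mean on day 3, 1.72, 2.58 and 1.18 on day 7, and 0.119, 2.58 and 2.30 on day 14. Their summed level was 189 to 269 CPM in sham, 276 to 1136 CPM on day 3, 717 to 1397 CPM on day 7 and 268 to 1226 CPM on day 14. Mmp19 was highest in the library highest in this list on each SCI day, and Mmp12 was so on days 3 and 7. On day 7 replicate 1 stood second in the list but had no Mmp12 count and the lowest Mmp19. On day 14 Mmp12 was highest in replicate 3 and the list in replicate 2. Markers of monocytes and border macrophages (8 of 8 matched, none at 0) stood 2.43, 0.982 and 2.06 log2 units above sham on day 3. They stood at 0.367, 1.91 and 1.96 on day 7, and at 0.306, 1.72 and 0.985 on day 14. SCI day 14 replicate 1, with the lowest macrophage level of that day, had the lowest Mmp3, Mmp12, Mmp19 and Timp1. The part of macrophage number in these levels was not tested.

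**Figure D3:**
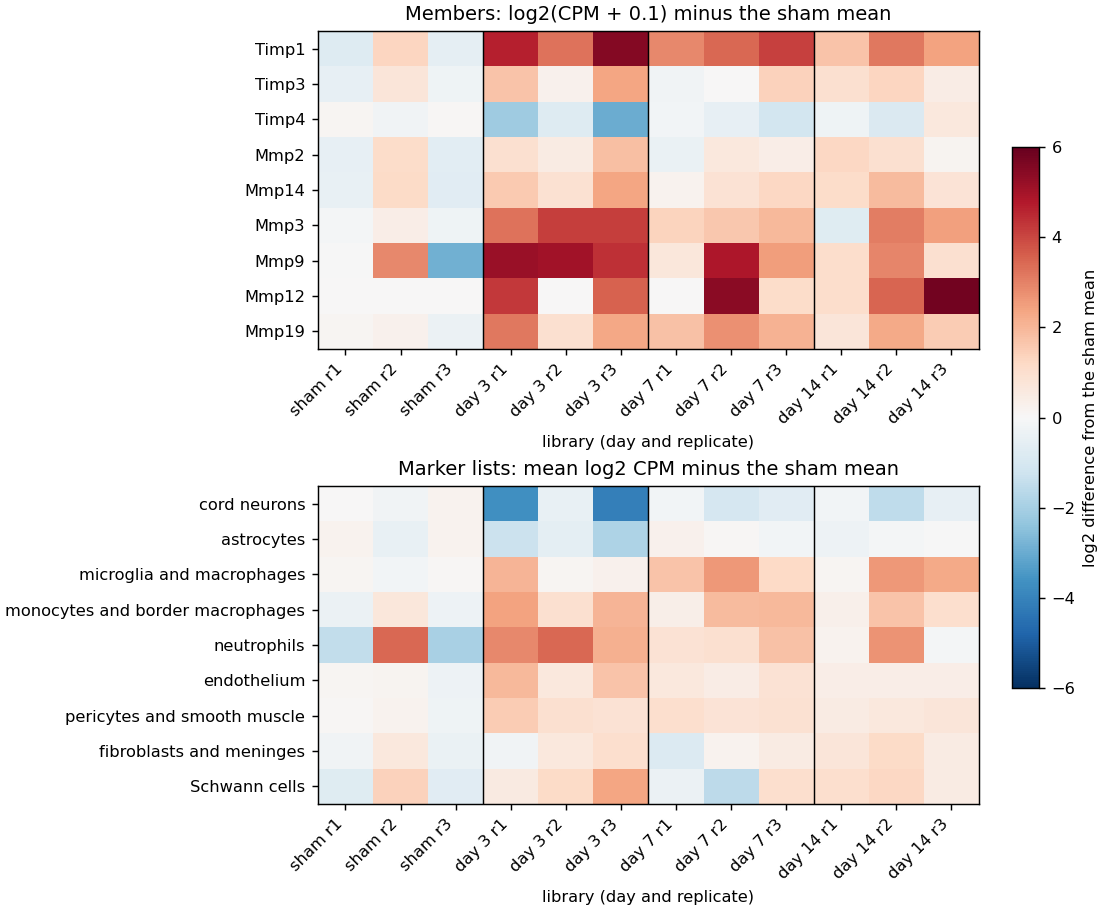
Colour shows the log2 difference of each library from the sham mean, for the members (upper panel, log2 of CPM plus 0.1) and for cell type marker lists (lower panel, mean log2 CPM of the list), with libraries in columns. Timp4 and the cord neuron and astrocyte lists are lowest in SCI day 3 replicates 1 and 3, and sham replicate 2 stands above the other sham libraries in Timp1, Mmp2, Mmp14, Mmp9 and the neutrophil and Schwann lists.

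The members covered a wide range of levels, compared here per length in the authors' FPKM. In sham, Timp3 led with a mean of 64.8 ± 31.7 FPKM (SD, n = 3), above Mmp14 at 18.3, Mmp2 at 16.8, Timp1 at 12.4 and Timp4 at 9.94. Timp3 did not overlap the next gene, while Mmp14, Mmp2, Timp1 and Timp4 each overlapped their neighbour. Mmp19 followed at 2.02 FPKM, below Timp4 with no overlap, then Mmp9 at 0.633, Mmp3 at 0.176 and Mmp12 at 0. On day 3 Timp1 led with 270 ± 180 FPKM and stood above Timp3, at 192 ± 117 FPKM, in all 3 libraries, although their ranges overlapped. Timp4, with 3.06 FPKM, then ranked eighth, overlapping Mmp3 at 3.34. Timp1 again stood above Timp3 in all 3 libraries of day 7, at 119 against 90.6 FPKM. On day 14 Timp3, at 116 FPKM, stood above Timp1, at 58.7 FPKM, in all 3.

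**Figure D4:**
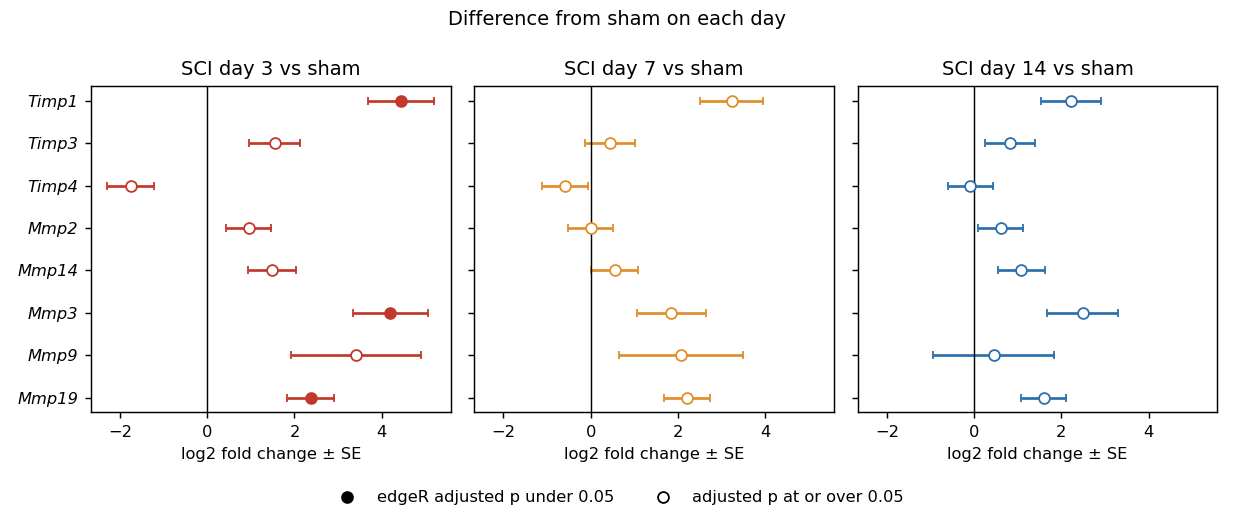
Log2 fold change from sham with its SE (horizontal) for 8 members in edgeR on each SCI day. Filled points passed at an adjusted p under 0.05 and open points did not. Mmp12 is left out because sham had 0 counts. Timp1, Mmp3 and Mmp19 are filled on day 3, and every point is open on days 7 and 14.

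Between the SCI days 0 members passed in edgeR, where 0% of all genes passed in each of the 3 comparisons. DESeq2 called 0 from day 3 to day 7 and 0 from day 7 to day 14, and limma voom called 0 in all 3. From day 3 to day 7, 7 of 9 log2 differences were negative, 1 member had an unadjusted p under 0.05 (14.8% of all genes did), and 1, Mmp3, was lower with no overlap, against 7.76% of all genes. Mmp3 had a log2 difference of -2.34 ± 0.787 there (edgeR adjusted p = 0.323). From day 3 to day 14, 7 of 9 were again negative, 3 had an unadjusted p under 0.05 (17.9% of all genes did), and Timp1, Mmp3 and Mmp9 were lower with no overlap, against 9.62% of all genes. Their log2 differences were -2.22 ± 0.690, -1.71 ± 0.769 and -2.97 ± 1.47 (edgeR adjusted p = 0.202, 0.279 and 0.307). Timp4 went the other way, with a log2 difference of 1.67 ± 0.535 (edgeR adjusted p = 0.204). Of these, DESeq2 called Timp1 and Timp4. From day 7 to day 14, 6 of 9 were positive, 0 had an unadjusted p under 0.05 (3.67% of all genes did), and no member separated the groups, where 10% of all genes did. With the 3 SCI days averaged, 0 of 9 members passed against sham in edgeR, where 0.0481% of all genes did, and 5 had an unadjusted p under 0.05, against 19.1%. DESeq2 called 4 and limma voom 7 in that contrast.

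Other genes of the same system were taken as lists, and all changes that passed were on day 3, where 5.5% of all genes passed as higher and 6.7% in either direction. The counts of other Mmps, Adamts genes and matrix genes below are few and not far from these shares. Among genes that activate metalloproteinases or inhibit proteases, 8 of 22 rose and 0 fell, with a median log2 difference of 1.10. They included Cd44, a hyaluronan receptor that anchors Mmp9 at the cell surface (2.81), the thrombospondins Thbs2 (3.82) and Thbs1 (4.10), the urokinase gene Plau (4.78) and its receptor Plaur (4.34), the Kunitz inhibitor Tfpi2 (5.14) and the proprotein convertase Furin (1.32), with edgeR adjusted p from 0.0324 to 0.0392. Plau measured 1.35, 3.84 and 1.70 CPM in sham and 87.6, 11.9 and 92.7 CPM on day 3. Furin, which opens the Mmp14 precursor, measured 36.5, 44.2 and 37.1 CPM in sham and 151, 58.8 and 93.1 CPM on day 3. Both were lowest on day 3 in replicate 2, as were Timp1, Mmp14 and Mmp19. Reck, a membrane-anchored inhibitor named after its value was seen, did not pass, with 0.77 ± 0.565 (edgeR adjusted p = 0.345).

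Of 11 other Mmp genes tested, 0 rose and 1 fell on day 3, with a median log2 difference of 0.25. The one that fell was Mmp17, a membrane-anchored Mmp, by 1.22 in log2 (edgeR adjusted p = 0.0435), from 17.9 to 20.5 CPM in sham to 5.31, 13.2 and 6.92 CPM. Mmp13, a collagenase named because it was the first of its list on day 7, measured 0.743, 0.507 and 0 CPM in sham and 4.78, 60.2 and 9.48 CPM on day 3, and did not pass (edgeR adjusted p = 0.105). The Adam genes code for membrane proteins, many but not all of them proteases that shed cell surface proteins. Of 11 tested, 0 passed in edgeR and 7 had an unadjusted p under 0.05, where 35.3% of all genes did. Among these 7, Adam11 and Adam23 had negative log2 differences (-2.21 and -1.61) and the rest had positive ones. The smallest p was that of Adam9 (log2 difference 0.88, edgeR adjusted p = 0.0536). Of 19 Adamts genes tested, secreted proteases that cut proteoglycans, 2 rose and 0 fell, with a median of 0.12. Adamts1 rose by 3.85 and Adamts9 by 3.19 (edgeR adjusted p = 0.0324 and 0.0378). Adamts1 went from 20.4, 24.9 and 16.1 CPM in sham to 294, 116 and 489 CPM, with no overlap and in the same order as Timp1 on day 3.

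Of 21 matrix proteins and other substrates tested, 2 rose and 1 fell on day 3, with a median log2 difference of 1.10. Fibronectin, Fn1, rose by 2.12 and tenascin C, Tnc, by 3.32 (edgeR adjusted p = 0.0424 and 0.0455), and the brain proteoglycan brevican, Bcan, fell by 2.26 (edgeR adjusted p = 0.0477). Of 18 transcription factors and cytokines known to induce Mmp and Timp genes, 10 rose and 0 fell, with a median of 2.09. They were the AP-1 subunits Fosb (4.03, edgeR adjusted p = 0.00534), Fos (2.63), Fosl2 and Jun, the transcription factors Egr1 (2.05), Stat3, Ets1 and Rela, and the cytokines Tgfb1 and Lif, the last 9 with edgeR adjusted p from 0.0324 to 0.0492. Fosb measured 0.875, 2.50 and 1.58 CPM in sham and 25.4, 30.5 and 26.6 CPM on day 3, with no overlap. Its level was 1.98 to 2.86 CPM on day 7. The part of these factors and cytokines in the members' levels was not tested. On days 7 and 14, 0 of the 102 genes of these 6 lists passed in edgeR, where 0.016% of all genes did on each day. At an unadjusted p under 0.05 there were 26 on day 7 and 22 on day 14, against 9.89% and 7.4% of all genes.

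The genes with the smallest p in each list on day 7 were Mmp13 (log2 difference 4.33), Adam12 (1.98), Adamts1 (2.60), Thbs2 (3.51), Fn1 (2.18) and Fos (1.61), with edgeR adjusted p from 0.186 to 0.553. On day 14 they were Mmp11 (1.28), Adam15 (0.55), Adamts14 (2.04), Thbs1 (3.21), Fn1 (1.80) and Fosb (1.36), with edgeR adjusted p from 0.511 to 0.731. Fn1 held this place on both days, at 438 to 981 CPM on day 7 and 260 to 918 CPM on day 14, against 109 to 179 CPM in sham.

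Of the genes most like a member over the 12 libraries, by Pearson r of log2 CPM among tested genes with enough counts, Mdfic (0.973), Rps19 (0.971) and Lsp1 (0.968) came closest to Timp1. Gpc4 (0.982), Plekha7 (0.970) and Fndc3b (0.966) came closest to Timp3. For Mmp14 they were Tgfbr2, a receptor of transforming growth factor beta (0.987), Nemp1 (0.983) and Gcnt1 (0.972). For Mmp12 they were Zfp17 (0.933), RGD1559482 (0.932) and Siglec1, a macrophage lectin (0.900). Among the members themselves, Mmp2 and Mmp14 varied together over the 12 libraries with r = 0.911, and with r = 0.898 after the group means were removed. Timp3 and Timp4 ran opposite to each other, with r = -0.836 and -0.913. These values describe 12 libraries that share groups and tissue make-up, and are given without a test.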

How the data were processed

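Gene expression was measured by RNA-seq in 12 libraries, and per the labels' protocols total RNA went into a SMARTer mRNA library kit. Per the file headers, the authors deposited unnormalised read counts for each gene. Per the file headers, they also deposited FPKM, in which a count is divided by gene length in kilobases and by library size, used here for levels between genes, shares and ratios only. The builds in the submitters' processing notes (GRCm38, mm10) are those of mouse, whereas identifiers in the table are rat, so no coordinates are taken from the table. No label or header used here names the aligner, the counting tool or the strand setting.

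The members and gene lists were chosen with earlier results of these data known. Counts of all 23526 genes were filtered with filterByExpr in edgeR 4.0.16 (R 4.3.3), which left 18714 and removed 4812, scaled with TMM factors and fitted with 1 mean per group over 12 libraries (8 residual degrees of freedom, common biological coefficient of variation 0.432). Comparisons were made by the quasi-likelihood test of edgeR with Benjamini-Hochberg adjustment over all genes tested and a limit of 0.05. The code was first run on simulated counts with known changes, drawn independently for each library. That run held no differences in tissue make-up and set no limit on false calls, so it does not vouch for the p-values here. The SE is the size of the log2 difference divided by the square root of F, and so restates the test. CPM use the library total without TMM. Marker lists are given as the mean log2 CPM (prior count 2) minus the sham mean. These log2 CPM, also used for the correlations, do include the TMM factors. Figures of single libraries use log2 of CPM plus 0.1.

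The text names all members, up to 3 genes of each list with the smallest p that passed in a comparison with sham or else the first gene, and the 3 genes most like Timp1, Timp3, Mmp12 and Mmp14 among those with a mean of at least 5 CPM. Further list genes that passed were named after their values were seen, and some are not reported here. The ratios planned against Timp2 were not computed, since it was not matched. Those of Mmp2 and Mmp14 to Timp1 were added beside the planned ratios of Mmp9, Mmp3 and Mmp12 to Timp1. The added ratios do not stand for a balance with Timp2. The ratio of Mmp2 to Mmp14 was not planned. Alternatives were DESeq2 1.42.0, size factors of DESeq2 in edgeR, limma 3.58.1 (voom with sample weights), library size alone, no filter, a filter of 1 CPM, a replicate block, a fit without the other groups, and fits that each omit 1 library. Leaving out both libraries with most Schwann markers was added after the data were seen, as was leaving out the highest library of each day for the Mmp12 bound.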

Additional observations from a re-analysis of the deposited data

How the results depend on the processing

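The calls of members on day 3 were near the limit. Against 3 members called in edgeR, DESeq2 called 8 and limma voom 7, the 4 other scalings and filters called 3, and a fit of only the compared groups and the fit without both Schwann-rich libraries called 0. With a library left out the count on day 3 ran from 0 to 6, with 6 without SCI day 3 replicate 2, 1 without sham replicate 2, 2 without SCI day 7 replicate 3, and 0 without sham replicate 1 or 3, SCI day 3 replicate 1 or 3, SCI day 7 replicate 2 or SCI day 14 replicate 3. Over all genes the count of 1254 became 7087 without SCI day 3 replicate 2 and 1 without sham replicate 3. The cause was not tested. On day 7, 0 members became 2 in DESeq2 and in voom and 1 in the fit of only the compared groups. Between days 3 and 14, 0 became 2 in DESeq2 and 0 to 2 with a library left out, and between days 3 and 7 it became 0 to 1. With the 3 days averaged, 0 became 4 in DESeq2, 7 in voom and 0 to 4 with a library left out. Deviations of same-numbered libraries from their group means had correlations from -0.343 to 0.247. These values cannot decide whether the numbers pair the samples, since libraries of 1 group also differed in tissue make-up. A fit with a replicate block called 0 members and 8 genes in all on day 3. In all 21 alternatives Timp1, Mmp3 and Mmp19 kept a positive difference on day 3, from 3.78 to 5.36, 4.02 to 4.46 and 1.82 to 2.77 on the log2 scale, and they were called in 12, 11 and 10. Of 1304 recomputed member differences, 26 changed sign, none of them called. With a library left out these were Timp3 (-0.22 to 0.90) and Mmp2 (-0.29 to 0.76) on day 7, Timp4 (-0.56 to 0.19) and Mmp9 (-0.60 to 3.07) on day 14, Mmp19 (-0.57 to 0.39) and Mmp12 (-4.03 to 1.33) from day 3 to 7, Mmp9 (-2.70 to 0.12), Mmp3 (-0.13 to 1.18) and Mmp12 (-1.29 to 5.19) from day 7 to 14, and Mmp2 (-0.60 to 0.16), Mmp14 (-0.78 to 0.11) and Mmp12 (-0.76 to 1.95) from day 3 to 14. In voom Mmp12 was -1.87 from day 3 to 7 and Mmp3 -0.45 from day 7 to 14. Under the block Mmp12 was -1.53 from day 3 to 7 and -0.34 from day 3 to 14. Without the Schwann-rich libraries Mmp2 and Mmp14 were 0.16 and 0.11 from day 3 to 14. Mmp12 has no value under the filter of 1 CPM, or, against sham, in the fit of only the compared groups. Its 0 to 340 counts per library and the 0 to 356 counts of Mmp9 in sham limit what depth can show for these genes.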
